A study of Mus musculus with 8 samples.

Results

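Nucleostemin (NS), the product of the Gnl3 gene, is a GTP-binding protein of the nucleolus. The data described here are the pair of arrays from NS tet-off embryonic stem cells (ESCs) that carried an empty vector and no rescue gene, 2 of the 8 arrays analysed, and all 18194 genes measured on them. 1 array holds RNA of cells kept in doxycycline (Dox) for 6 days and 1 array holds RNA of Dox-untreated cells. Both copies of the NS gene are disrupted in these cells, and an NS cDNA at the ROSA26 locus is expressed until Dox shuts it off. The Dox-treated and the Dox-untreated cells thus share the disrupted alleles and the vector and differ in whether the cDNA is switched off. The line is male and of 129sv background, it was grown without feeders in LIF and serum, and it is 1 line. The other 6 arrays are Dox-treated and Dox-untreated arrays of the same line under the 2i condition, with inhibitors of MEK and GSK-3, with forced Nanog or with forced Esrrb, and each of these 8 conditions has 1 array. Total RNA was hybridized to Affymetrix mouse genome arrays, and the authors deposited log2 signals made by robust multiarray analysis, RMA.

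The log2 ratio of a gene is its log2 signal on the Dox-treated array minus that on the Dox-untreated array, taken from the probe set whose mean over the 8 arrays was highest. Over 2-fold stands for log2 ratios above 1 and below -1. Since each condition has 1 array, a difference within the pair has no replicate check, no test was made within it, and every statement on it describes these 2 arrays. No Dox-treated array of cells with an intact NS gene was used, so the effects of Dox and of NS loss cannot be told apart. Loss of NS is also known to kill many cells of this line. In bulk RNA, fewer cells of a kind and less RNA per cell cannot be told apart. The labels of the 2i Dox-untreated array are not borne out by Dusp6, a gene induced by MEK signalling, whose signal was 7.64 with Dox and 10.95 without Dox in the 2i condition, the second of these close to the 10.97 of empty vector cells without Dox. Results that use the 2i pair are therefore given with and without it.

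Gnl3 had a log2 signal of 7.79 on the Dox-treated array, against 13.47 on the Dox-untreated array, so that 1.95% of the signal was left. Its log2 ratio of -5.68 was the lowest of all genes. In total, 976 genes (5.36%) were over 2-fold higher and 701 genes (3.85%) over 2-fold lower on the Dox-treated array. Every list count below is to be read against these shares. The lists were chosen with earlier results of these data known, so a larger share in a list is a description and not a test. Over 4-fold the numbers were 261 higher and 106 lower, over 8-fold 76 and 11, and over 16-fold 19 and 2, so the higher genes had the longer tail. As a yardstick, the Dox-untreated arrays of the other conditions differed from that of the empty vector cells over 2-fold in 94 higher and 44 lower genes under the 2i label, 79 and 46 with Nanog, and 230 and 102 with Esrrb. Of the genes over 2-fold higher, 270 (27.7%) had a Dox-untreated signal below the median of the array, where ratios are compressed, against 36.8% of all genes. Probe sets of a gene did not always agree. Among the 538 higher genes with over 1 probe set, all probe sets were over 2-fold higher in 193 and at least 1 pointed the other way in 107. Among the 383 lower genes with over 1 probe set, these numbers were 86 and 82.

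**Figure D1:**
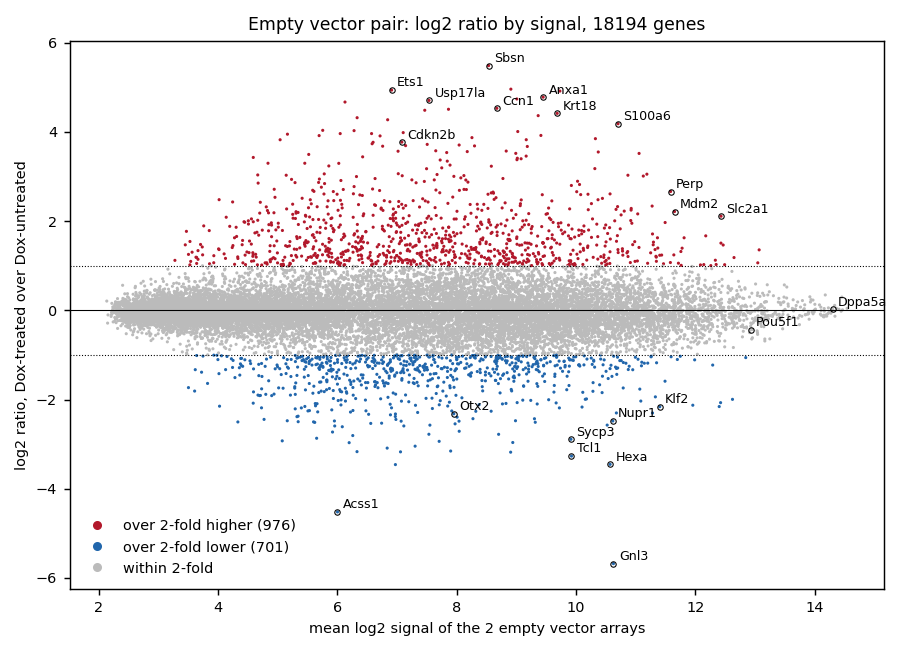
Log2 ratio, Dox-treated over Dox-untreated (vertical axis), against the mean log2 signal of both empty vector arrays (horizontal axis) for 18194 genes, with dotted lines at 2-fold and 1 array per condition. The 976 higher genes reach a log2 ratio of 5.49 for Sbsn, while apart from Gnl3 and Acss1 no lower gene passes 16-fold.

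ESC identity rests on a core of transcription factors such as Oct3/4 (Pou5f1), Sox2 and Nanog, and on further factors that mark the naive state of the preimplantation epiblast. The ESC label of both arrays was borne out by 8 defining markers. Pou5f1 had a signal of 12.71 on the Dox-treated and 13.15 on the Dox-untreated array, Sox2 12.87 with Dox and 12.78 without, and Dppa5a, a gene of pluripotent cells, 14.31 with Dox and 14.29 without. None of the 8 passed 2-fold, but 5 were below 0 and 3 above, with a median log2 ratio of -0.32. Esrrb came nearest to 2-fold, with 10.38 on the Dox-treated against 11.31 on the Dox-untreated array. These 8 markers thus stayed within 2-fold, while many naive pluripotency factors did not. Of 26 naive pluripotency factors, 11 were over 2-fold lower and 1 over 2-fold higher, with a median log2 ratio of -0.90, against 3.85% lower and a median of -0.03 over all genes. Lowest were Tcl1, Nr0b1, Klf2 and Prdm14, with log2 ratios between -3.27 and -1.81. Mybl2, a cell cycle regulator listed here for its place in the ESC network, stood at 9.48 on the Dox-treated array and at 11.10 on the Dox-untreated array. Lefty1 and Lefty2, secreted antagonists of Nodal, had log2 ratios of -1.29 and -1.38, and the cell surface gene Jam2 had -1.04. The 1 higher gene was Sp5, a Wnt-responsive transcription factor, with 8.26 on the Dox-treated and 6.14 on the Dox-untreated array. Of 12 core pluripotency transcription factors, 2 (16.7%) were over 2-fold lower and 8 were below 0, with a median of -0.30. Otx2, which drives the step to the primed epiblast, had 6.79 on the Dox-treated against 9.11 on the Dox-untreated array, and the forkhead factor Foxd3 had 7.16 with Dox against 8.43 without.

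Genes of the primed epiblast, the state that follows the naive one at implantation, were found in both directions. Of 17, 4 were over 2-fold higher and 5 lower, with a median of -0.32. The lower genes were the transcription factors Otx2, Foxd3, Zic2 with -1.88 and Zic5 with -2.12, and the growth factor gene Fgf15 with -2.28. Fgf5, the most used marker of this state, was dim on both arrays, with 3.48 on the Dox-treated and 4.34 on the Dox-untreated array. The higher genes were Krt18, the claudin gene Cldn6, the POU factor gene Pou3f1 with 1.62 and Nodal, which had 12.12 on the Dox-treated and 11.05 on the Dox-untreated array. In the Nodal and Activin pathway, 2 of 17 genes were over 2-fold higher and 3 lower, and the lower ones were Lefty1, Lefty2 and the Activin subunit gene Inhbb with -2.10.

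Simple epithelia are built on the keratin pair Krt8 and Krt18, and stratified epithelia on further keratins and on the envelope proteins of the keratinocyte. Of 16 keratin genes, 6 (37.5%) were over 2-fold higher and 0 lower, against 5.36% and 3.85% of all genes. Krt19 was the highest of them, with 11.39 on the Dox-treated against 6.43 on the Dox-untreated array, a 31.1-fold ratio. Krt18 had 11.89 on the Dox-treated against 7.48 on the Dox-untreated array, a 21.3-fold ratio, and its partner Krt8 was higher by 3.85. Krt7 had 7.51 with Dox against 4.60 without. Krt15 and Krt13, keratins of stratified epithelia, were higher by 1.68 and 1.38 from dim signals. The keratins that define stratified epithelium stayed dim. Krt5 had 6.00 on the Dox-treated and 5.12 on the Dox-untreated array, Krt14 4.57 with Dox and 4.37 without, and Krt1 4.48 with Dox and 4.20 without. Trp63, the master regulator of that tissue, stood at 3.83 on the Dox-treated and 3.92 on the Dox-untreated array. Of 8 defining markers of stratified epithelium, 3 (37.5%) were over 2-fold higher and 0 lower, with a median of 0.58. The 3 were Sbsn, Dmkn and Krtdap, and Trp63 and the keratins among the 8 were not over 2-fold higher, so no stratified epithelium is named here. Of 32 genes of keratinocyte differentiation, 8 were over 2-fold higher and 2 lower, with a median of -0.05. These were Sbsn, Dmkn and Krtdap, which are secreted by differentiating keratinocytes, the 14-3-3 gene Sfn, the desmosomal genes Perp and Ppl, the transcription factor gene Grhl3 and the transglutaminase gene Tgm1. Sfn had 10.14 on the Dox-treated against 6.46 on the Dox-untreated array. Perp and Sfn are also p53 targets.

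Sbsn, the highest gene of the pair after Dox, had 11.28 on the Dox-treated and 5.79 on the Dox-untreated array. Its neighbours Dmkn and Krtdap were also over 2-fold higher, with log2 ratios of 4.67 and 2.94, which makes a run of 3 adjacent measured genes on chromosome 7. In the promoter windows of RefSeq, which run from 250 bases before to 50 bases after the start of a gene, Sbsn and Dmkn hold the letters TGANTCA of the AP-1 motif, searched on both strands. The windows lie on the plus strand of GRCm38.p6 at chr7:30751221-30751520 for Sbsn and chr7:30763506-30763805 for Dmkn, and are shown for this shared motif, in capitals, 119 and 6 bases before the start of Sbsn and 89 bases before the start of Dmkn. Windows were matched for 19 of the 25 highest genes, and 3 held the motif, those of Sbsn, Dmkn and AF067061. Across all windows its share was 6.33%. A match is a description of the letters and not a site.
Sbsn: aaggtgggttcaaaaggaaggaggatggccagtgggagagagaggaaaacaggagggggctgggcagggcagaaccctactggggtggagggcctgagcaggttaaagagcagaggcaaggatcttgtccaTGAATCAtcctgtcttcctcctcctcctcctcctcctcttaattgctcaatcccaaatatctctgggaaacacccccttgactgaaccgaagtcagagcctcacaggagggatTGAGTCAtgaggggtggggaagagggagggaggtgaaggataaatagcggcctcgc
Dmkn: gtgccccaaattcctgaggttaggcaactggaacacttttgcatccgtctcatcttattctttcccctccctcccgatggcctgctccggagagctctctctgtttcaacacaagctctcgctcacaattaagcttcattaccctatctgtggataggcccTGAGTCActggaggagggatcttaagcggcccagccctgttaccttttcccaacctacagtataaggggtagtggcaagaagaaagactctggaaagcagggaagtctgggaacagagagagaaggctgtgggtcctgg

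Of 31 genes of claudins and epithelial junctions, 8 (25.8%) were over 2-fold higher and 2 (6.45%) lower, with a median of 0.38. Over all genes the shares were 5.36% and 3.85%. Dsp, which anchors keratins at desmosomes, had 10.83 on the Dox-treated and 8.92 on the Dox-untreated array, although another of its probe sets had a log2 ratio of 0.05. Cldn4 had 10.45 on the Dox-treated against 8.76 on the Dox-untreated array, Cldn6 9.76 with Dox against 7.87 without, and the tight junction gene Cgn 8.36 with Dox against 6.72 without. The plakophilin genes Pkp2 and Pkp3 were higher by 1.41 and 1.05. Lower were the gap junction gene Gjb2 with -1.91 and Esrp1, a splicing factor of epithelial cells, with -1.59, so that not all epithelial genes were higher.

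The signals of the key genes of this and the next groups are set side by side in the plot of signals on both empty vector arrays.

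**Figure D2:**
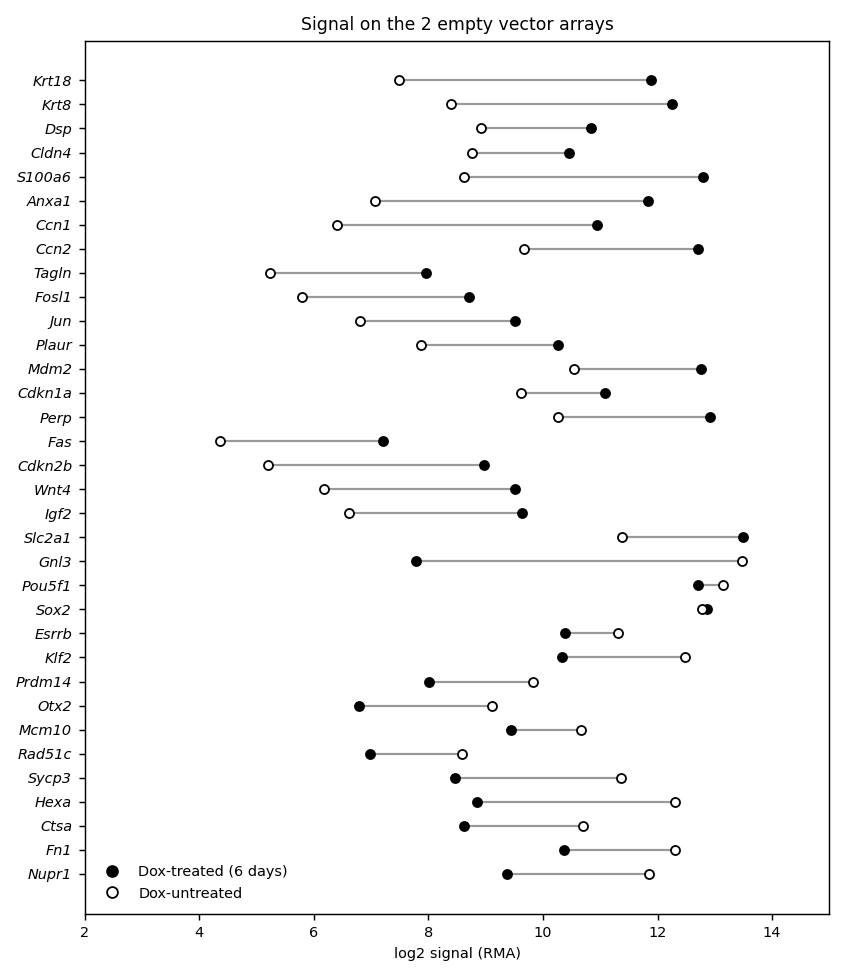
Log2 signal (horizontal axis) of 34 named genes on the Dox-treated (filled circles) and Dox-untreated (open circles) empty vector arrays, with 1 array per condition and so no error bars. Krt18 stands at 11.89 on the Dox-treated against 7.48 on the Dox-untreated array, Pou5f1 at 12.71 with Dox against 13.15 without, and Gnl3 at 7.79 with Dox against 13.47 without.

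Genes of the actin cytoskeleton and targets of serum response factor (SRF) and of the Hippo effector YAP formed the list with the largest share over 2-fold among those with 15 or more genes. SRF and YAP switch on such genes when cells spread and build actin fibres. Of 40, 22 (55.0%) were over 2-fold higher and 0 lower, and 36 were above 0, with a median of 1.18. Ccn1, a matrix protein and standard YAP target, had 10.94 on the Dox-treated and 6.41 on the Dox-untreated array. Its relative Ccn2 had 12.71 on the Dox-treated against 9.66 on the Dox-untreated array. Thbs1, which encodes the matrix protein thrombospondin, had 6.66 on the Dox-treated and 3.63 on the Dox-untreated array. All 3 are secreted targets of YAP. Tagln, which encodes an actin-binding protein of smooth muscle, had 7.95 on the Dox-treated against 5.23 on the Dox-untreated array. Cald1, for caldesmon, had 12.63 on the Dox-treated and 9.62 on the Dox-untreated array, and the filamin gene Flnc 9.53 with Dox and 7.16 without. Also over 2-fold higher were the tropomyosin gene Tpm1 with 1.64, the lamin gene Lmna with 1.61, the focal adhesion gene Zyx with 1.42, the intermediate filament gene Vim with 1.24 and the filamin gene Flna with 1.14. Other probe sets reached down to 0.11 for Cald1, 0.06 for Tpm1, 0.06 for Lmna and 0.66 for Zyx.

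Annexins bind membranes when calcium rises, and many S100 proteins partner with them. Of 22 annexin and S100 genes, a list added after the data were seen, 7 were over 2-fold higher and 1 lower, with a median of 0.32. Anxa1 had 11.84 on the Dox-treated against 7.06 on the Dox-untreated array, Anxa3 11.03 with Dox against 7.02 without, and S100a6 12.80 with Dox against 8.61 without. Anxa2 and its partner S100a10 were higher by 2.48 and 1.10. Another probe set stood at 0.52 for Anxa1 and at -0.34 for Anxa2. The lower gene was S100a13 with -1.64.

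Immediate early genes are the first to respond to growth factors and stress, and the AP-1 complex is made from the Fos and Jun families among them. Of 24 immediate early and growth factor response genes, 11 (45.8%) were over 2-fold higher and 1 lower, with a median of 0.89. Besides Ccn1 and Ccn2 these included Phlda1 with 11.02 on the Dox-treated against 7.35 on the Dox-untreated array, the antiproliferative gene Btg2 at 11.83 with Dox against 9.69 without, and the phosphatase gene Dusp1 at 11.75 with Dox against 10.21 without. The lower gene was Klf10 with -1.22. Of 14 AP-1 genes, 3 were higher and 2 lower past 2-fold. Fosl1 had 8.71 on the Dox-treated against 5.79 on the Dox-untreated array and Jun 9.52 with Dox against 6.81 without, while Jdp2, a repressor of AP-1, and its relative Maff had -1.03 and -1.10. Feedback genes of MEK and Erk gave 4 higher and 1 lower of 19. Dusp6 and the Ets factor gene Etv4, which are induced by MEK and Erk signalling, had log2 ratios of 0.43 and 0.40. The higher genes of this list also belong to the immediate early and AP-1 genes, apart from Dusp5 with 1.37. What lay behind these ratios was not tested.

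Receptors and matrix around the cell were also among the higher genes. Of 22 integrins and adhesion receptors, 6 were over 2-fold higher and 1 lower. Itgb4, the integrin of hemidesmosomes, had 8.25 on the Dox-treated and 5.96 on the Dox-untreated array, and Itga3, a laminin receptor, 9.33 with Dox and 7.15 without. The hyaluronan receptor gene Cd44 had 6.30 on the Dox-treated against 3.58 on the Dox-untreated array, with another probe set at a ratio of -0.24. Itga9 was lower with -1.69. Of 29 genes of basement membrane and extracellular matrix, 10 were over 2-fold higher and 2 lower, with a median of 0.35. The neighbours Col4a1 and Col4a2, which encode the chains of type IV collagen, had 9.12 and 7.92 on the Dox-treated array, against 6.89 and 5.86 on the Dox-untreated array. The laminin genes differed among themselves. Lamb3 and Lama5, of epithelial laminins, were higher by 1.40 and 1.01, and Lama1, of the laminin that ESCs make, was lower with 8.29 on the Dox-treated against 9.65 on the Dox-untreated array. Fn1, the fibronectin gene, had 10.36 on the Dox-treated and 12.30 on the Dox-untreated array. Of 21 matrix proteases and inhibitors, 6 were over 2-fold higher, among them Plaur, the urokinase receptor gene, with 10.26 on the Dox-treated against 7.87 on the Dox-untreated array, and Adam8 at 7.71 with Dox against 5.13 without. The 1 lower gene there was Hexa, which was listed with them as a lysosomal hydrolase.

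Trophoblast is the first lineage to leave the embryo's pluripotent cells, under Cdx2, Eomes, Gata3 and Elf5. Of 17 trophoblast transcription factors, 6 (35.3%) were over 2-fold higher and 0 lower, with a median of 0.64. Ascl2, a factor of the ectoplacental cone, had a log2 ratio of 2.70. Gata3 and Cdx2 were over 2-fold higher but remained dim, with 5.99 and 5.35 on the Dox-treated array and 4.03 and 4.28 on the Dox-untreated array. Eomes had 7.84 on the Dox-treated and 6.74 on the Dox-untreated array. Msx2, with 1.65, had another probe set at 0.00, and Cdx2 one at 0.43. Elf5, which defines committed trophoblast stem cells, was near the lowest signals on both arrays, with 3.32 on the Dox-treated and 3.29 on the Dox-untreated array. Of 20 trophoblast and placental markers, 9 (45.0%) were over 2-fold higher. 4 of these 9 are keratins, and the others were Peg10, Bmp8b, Plac1, Plet1 and Fgfr2 with log2 ratios between 1.28 and 2.11. Of 8 defining markers of trophoblast, 5 were over 2-fold higher, with Elf5, Hand1 and Tfap2c not among them. The part of these markers in the other results was not tested.

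Markers of other lineages were weaker. Of 28 mesoderm and mesendoderm regulators, 7 were over 2-fold higher and 0 lower, but the median was 0.04. The T-box gene Tbx4 had 8.45 on the Dox-treated against 4.72 on the Dox-untreated array, the LIM homeobox gene Lhx1 6.29 with Dox against 4.22 without, and Tbx20 5.67 with Dox against 3.66 without. Of 6 defining primitive endoderm markers only Gata6 passed 2-fold, with 6.31 on the Dox-treated and 4.89 on the Dox-untreated array, and Gata4, Sox17, Dab2 and Pdgfra stood between 4.43 and 5.19 on the Dox-treated array. Fibroblast markers gave 0 of 6 past 2-fold, and heart and muscle markers 0 of 4. Of 5 neural markers, Nes alone passed, with 1.24, and of 6 blood and endothelial markers Tek was higher with 1.24 and Vwf lower with -1.09. Neurod1, a neuronal factor gene among the 25 highest genes, had 11.37 on the Dox-treated and 7.45 on the Dox-untreated array, while Sox1 and Pax6 had -0.10 and -0.15.

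**Figure D3:**
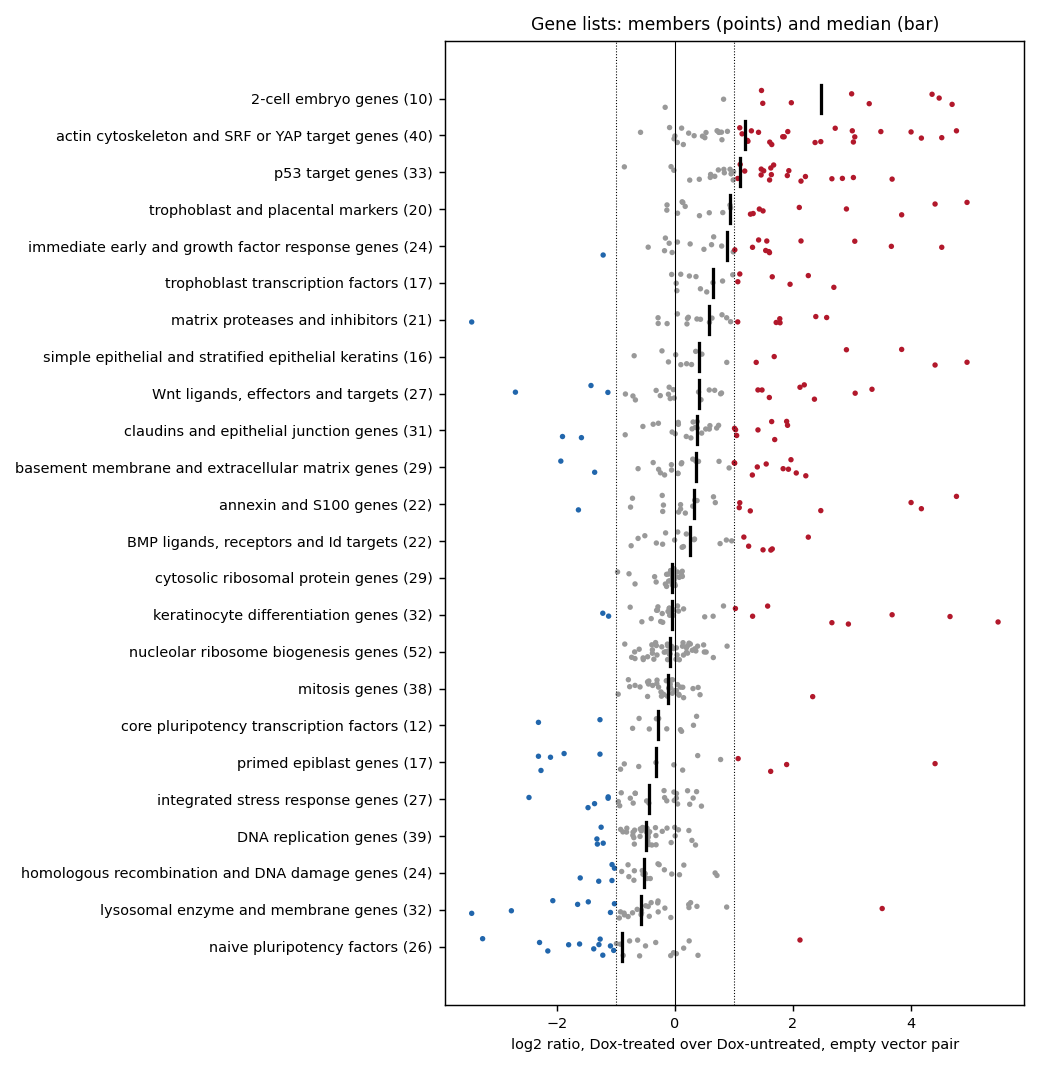
Log2 ratio in the empty vector pair, Dox-treated over Dox-untreated (horizontal axis), for the members (points; red over 2-fold higher, blue over 2-fold lower, grey within 2-fold) of 24 gene lists, with the number of genes in brackets and the median as a black bar. The median is highest for the 2-cell embryo genes, with 2.49, and lowest for the naive pluripotency factors, with -0.90.

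p53 stops the cycle or starts cell death after DNA damage or nucleolar stress, and Mdm2 is both its target and its inhibitor. Of 33 p53 target genes, 18 (54.5%) were over 2-fold higher and 0 lower, 30 were above 0, and the median was 1.11. Mdm2 had 12.76 on the Dox-treated against 10.54 on the Dox-untreated array. Cdkn1a, which encodes the cell cycle inhibitor p21, had 11.08 on the Dox-treated and 9.62 on the Dox-untreated array. Perp had 12.92 on the Dox-treated against 10.25 on the Dox-untreated array. These genes of cycle arrest and feedback were joined by genes of cell death. The death receptor gene Fas had 7.21 on the Dox-treated and 4.36 on the Dox-untreated array. Apaf1, of the apoptosome, had 11.31 on the Dox-treated against 9.38 on the Dox-untreated array, and Pmaip1, for Noxa, 11.53 with Dox against 9.86 without. The polymerase gene Polk and the repair gene Ercc5 were higher by 1.51 and 1.61. Ccng1 and Trp53inp1, already bright without Dox, had 13.24 and 13.58 on the Dox-treated array and 12.06 and 12.51 on the Dox-untreated array. Zmat3, with 0.99, lay just within 2-fold, and Bbc3, for Puma, had 0.74. Plk2, with 3.03, had another probe set at 0.18. Of 7 p53 family genes and regulators, Mdm2, Cdkn2a and Trp73 were over 2-fold higher, and the inhibitor Mdm4 had -0.64.

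Among 24 cyclins, kinases and inhibitors of the G1 phase, 5 were over 2-fold higher and 4 lower. The inhibitor genes Cdkn2a and Cdkn2b, neighbours on chromosome 4, had 7.11 and 8.97 on the Dox-treated array, against 5.60 and 5.20 on the Dox-untreated array. Rb1, the brake on the step into S phase, had 10.63 on the Dox-treated and 8.92 on the Dox-untreated array, and Ccnd2 9.64 with Dox and 7.27 without. Lower were Ccne2 with -1.51, E2f3 with -1.18, Cdk2 with -1.11 and the inhibitor Cdkn1b with -1.08. Other probe sets of E2f3 and Cdk2 stood at 0.03 and -0.20. Of 39 DNA replication genes, 4 were over 2-fold lower, 0 higher and 35 within 2-fold, and 34 were below 0, with a median of -0.49. The 4 were Uhrf1, which recruits the maintenance DNA methyltransferase, with 10.21 on the Dox-treated against 11.54 on the Dox-untreated array, Chaf1b, Gins3 and Mcm10. Of 24 genes of homologous recombination and DNA damage, 5 (20.8%) were over 2-fold lower and 0 higher, with a median of -0.53. They were Rad51c with -1.61, Rad51ap1 with -1.30, Rad54b and Chek1 with -1.07 each, and Nbn with -1.03, and Brca1 lay just within with -0.91. Of 38 mitosis genes 0 were over 2-fold lower, and Pttg1, for securin, was higher with 12.44 on the Dox-treated and 10.11 on the Dox-untreated array.

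Apoptosis genes of the Bcl2 family were found both ways, with 4 of 15 higher and 2 lower. The killers Pmaip1, Bcl2l11 and Bnip3 were higher by 1.67, 1.21 and 1.71, and so was the survival gene Bcl2l1 by 1.61, with another probe set at -0.14. The killers Hrk and Bmf had -2.39 and -1.34.

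NS sits in the nucleolus, where ribosomes are assembled. Of 52 genes of nucleolar ribosome biogenesis, 0 were over 2-fold higher or lower, with log2 ratios between -0.85 and 0.88 and a median of -0.09. Of 29 genes of cytosolic ribosomal proteins 0 passed 2-fold either, with a median of -0.04. The same held for 14 housekeeping genes, with a median of -0.02. RMA sets all arrays to 1 distribution, so a change common to all RNA would not be seen. Targets of the integrated stress response, which ATF4 turns on when translation is throttled, were on the low side. Of 27, 0 were over 2-fold higher and 5 lower, with a median of -0.44. Nupr1 had 9.38 on the Dox-treated against 11.86 on the Dox-untreated array, and the glutathione-degrading enzyme gene Chac1 9.09 with Dox against 10.46 without.

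Other stress genes were over 2-fold higher in part. Of 15 heat shock and small heat shock genes, a list added after the data were seen, 5 were over 2-fold higher, with a median of 0.31. Cryab, which encodes a small chaperone, had 11.38 on the Dox-treated and 6.64 on the Dox-untreated array, a 26.7-fold ratio, with 1 of its 3 probe sets at -0.31. Its neighbour Hspb2 had 9.48 on the Dox-treated against 6.77 on the Dox-untreated array. The inducible Hsp70 genes Hspa1a and Hspa1b, near-identical copies whose signals cannot be separated with certainty, were higher by 3.17 and 2.01. Of 16 Nrf2 targets, 3 were over 2-fold higher and 7 were below 0, with the secreted peroxidase gene Gpx3 at 10.78 on the Dox-treated and 7.38 on the Dox-untreated array. Of 33 genes of glycolysis and hypoxia, 6 were over 2-fold higher and 0 lower. The glucose transporter gene Slc2a1 had 13.49 on the Dox-treated against 11.38 on the Dox-untreated array, and the mTOR inhibitor gene Ddit4 was higher by 1.63, while the median was 0.21.

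Among signalling genes, Wnt ligands and carriers of fibroblast growth factors had the highest ratios. Of 27 Wnt pathway genes, 8 were over 2-fold higher and 3 lower, and 7 of the 8 were ligands. Wnt4 had 9.51 on the Dox-treated and 6.17 on the Dox-untreated array, Wnt10a 8.07 with Dox and 5.88 without, and Wnt6 7.73 with Dox and 6.13 without. Wnt5a and Wnt9a, with 3.06 and 2.37, had other probe sets at 0.45 and -0.20. The lower genes were the secreted inhibitor Sfrp1, with 6.69 on the Dox-treated against 9.40 on the Dox-untreated array, and the receptor genes Fzd5 and Fzd7 with -1.14 and -1.43. Axin2, a general Wnt target, had 0.79. Of 22 genes of the BMP pathway, 6 were over 2-fold higher and 0 lower. Id1, Id2 and Id3, the direct targets that block differentiation factors, had 12.18, 11.80 and 10.30 on the Dox-treated array, against 10.55, 9.54 and 9.13 on the Dox-untreated array. In the fibroblast growth factor family, the carriers Fgfbp1 and Fgfbp3 had 12.19 and 8.55 on the Dox-treated array and 7.27 and 4.59 on the Dox-untreated array, the receptor genes Fgfr2 and Fgfr1 were higher by 1.28 and 1.01, and Fgf4, the autocrine factor of ESCs, had -0.64. For LIF signalling, the ligand gene Lif had 1.24, the receptor gene Lifr -1.09 and the Stat3 target Klf4 -1.23. Igf2, an imprinted growth factor gene, had 9.63 on the Dox-treated and 6.61 on the Dox-untreated array, with another probe set at 0.56.

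A rare fraction of ESCs expresses genes of the 2-cell embryo. Of 10 such genes measured, 8 (80.0%) were over 2-fold higher and 0 lower, with a median of 2.49. Usp17la had 9.89 on the Dox-treated against 5.18 on the Dox-untreated array, and Zfp352 7.82 with Dox against 4.82 without. Gm20767, AF067061 and Tcstv1 are adjacent on chromosome 13 in a run of 4 higher genes and had log2 ratios of 4.49, 4.36 and 1.97. These genes have close copies in the genome whose signals cannot be separated here. Germline genes did not follow. Of 27, 1 was over 2-fold higher, the RNA-binding gene Dazl with 9.15 on the Dox-treated and 7.62 on the Dox-untreated array, and 4 lower. Sycp3, of the synaptonemal complex, had 8.47 on the Dox-treated against 11.36 on the Dox-untreated array, Sycp1 had -1.48 and Tex11 -1.23. In antigen presentation, the peptide transporter gene Tap1 had 9.60 on the Dox-treated and 6.06 on the Dox-untreated array and its activator Nlrc5 was higher by 2.32, while the class I genes H2-K1 and H2-D1 had -1.03 and -1.05. Other probe sets of Tap1 and H2-D1 stood at -0.24 and 0.17.

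Lysosomal genes were found on the low side after their values were seen, and the list was added for that reason. Of 32, 26 were below 0, 7 (21.9%) over 2-fold lower and 1 higher, with a median of -0.57. Hexa, a hydrolase of gangliosides, had 8.85 on the Dox-treated against 12.30 on the Dox-untreated array. The aspartic protease gene Napsa had 7.31 on the Dox-treated and 10.09 on the Dox-untreated array, and the galactosidase gene Glb1 8.22 with Dox and 9.70 without. The exception was Man2b1, an alpha-mannosidase, with 12.82 on the Dox-treated and 9.30 on the Dox-untreated array. Ctsa, with -2.08, had another probe set at 0.14. TFEB and MITF are known to drive lysosomal genes and, for MITF, pigment genes. Tfeb had 6.80 on the Dox-treated against 8.09 on the Dox-untreated array and Mitf 7.43 with Dox against 8.41 without. Of 18 of these factors and their targets, a list also added after the data were seen, 5 were over 2-fold lower and 2 higher. Pmel, of the pigment granule, had 5.47 on the Dox-treated against 8.64 on the Dox-untreated array, and Mlana, of the same organelle, stood the other way at 8.48 with Dox against 4.72 without. Lipid metabolism was mixed. Of 32 genes of sterol and fatty acid synthesis, 1 was over 2-fold higher, 2 lower and 29 within 2-fold, with a median of -0.02. Of 30 genes of fatty acid oxidation and lipid breakdown, 3 were over 2-fold higher and 6 lower, with a median of -0.21. Among lower genes of lipid metabolism, the mitochondrial acetyl-CoA synthetase gene Acss1 had 3.74 on the Dox-treated and 8.26 on the Dox-untreated array. Another probe set of Acss1 stood at 0.20. The desaturase gene Scd1 had -2.01 and the lipase gene Lpl -2.02.

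The remaining lists held fewer or mixed calls, some of them near the shares over all genes, 5.36% higher and 3.85% lower. Of 45 homeobox and T-box genes of developmental patterning, 5 (11.1%) were over 2-fold higher and 2 (4.44%) lower. The Iroquois genes Irx3, Irx5 and Irx4 were higher by 1.79, 1.44 and 1.04 from dim signals. Of 20 Ets factor genes 3 were higher and 0 lower. The highest of them was Ets1, with 9.38 on the Dox-treated against 4.44 on the Dox-untreated array, a 30.6-fold ratio. Ets1 ranked 3 from the highest among all genes, and its probe sets had log2 ratios between 0.91 and 5.22. Elk3 had 7.82 on the Dox-treated against 5.46 on the Dox-untreated array. Among 25 Polycomb complex genes, 2 (8.0%) were over 2-fold higher, Pcgf3 and Phc2 by 1.77 and 1.51, and 0 were lower. Of 24 cytokine and chemokine genes 5 were higher and 0 lower, with the receptor gene Tnfrsf12a at 10.24 on the Dox-treated and 7.89 on the Dox-untreated array. Of 21 interferon-stimulated genes 3 were higher, among them Ifitm3 with 11.90 on the Dox-treated against 8.73 on the Dox-untreated array, and 2 were lower, Oas1a with -1.90 and Xaf1 with -1.24. Of 27 imprinted genes 5 were higher and 1 lower, with Phlda2, a brake on placental growth, at -1.03. Among 20 genes of the Myc and Max network, the Max partner gene Mxd4 had 7.96 on the Dox-treated and 5.90 on the Dox-untreated array, and Mga was lower with -1.27.

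The other pairs share no array with the empty vector pair. They held 875 genes (4.81%) over 2-fold higher and 564 (3.1%) lower under the 2i label, 206 (1.13%) and 213 (1.17%) with Nanog, and 193 (1.06%) and 176 (0.967%) with Esrrb. Of the 976 genes higher in the empty vector pair, 506 were higher in the 2i pair, which is 51.8% of the empty vector genes and 57.8% of the 2i genes. The Nanog pair shared 136 of them, 13.9% and 66.0% of the lists, and the Esrrb pair 144, 14.8% and 74.6%. Lower in both were 269 genes with the 2i pair, 38.4% and 47.7%, 119 with the Nanog pair, 17.0% and 55.9%, and 92 with the Esrrb pair, 13.1% and 52.3%. Past 2-fold in all 4 pairs were 70 higher and 32 lower genes, or 78 and 60 when the 2i pair was left out, and 422 (43.2%) higher and 366 (52.2%) lower genes passed in the empty vector pair alone. Without the 2i pair, 774 (79.3%) higher and 550 (78.5%) lower genes of the empty vector pair passed in neither the Nanog nor the Esrrb pair. Of all genes, at most 4.81% were higher and at most 3.1% lower in any of the other pairs. Most genes of any kind thus pass in none of them, and these shares are not particular to the genes of the empty vector pair. Failing the threshold in a pair is not the same as no response there. The 976 higher genes had median log2 ratios of 1.04, 0.47 and 0.43 in the 2i, Nanog and Esrrb pairs. For the lower genes these medians were -0.79, -0.42 and -0.35.

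The list medians in the other pairs stood nearer to the empty vector pair for some programmes than for others. The p53 targets had medians of 1.11 in the empty vector pair and 1.05, 0.35 and 0.42 in the 2i, Nanog and Esrrb pairs. For the actin, SRF and YAP genes the medians were 1.18 in the empty vector pair and 0.65, 0.18 and 0.08 in the 2i, Nanog and Esrrb pairs, and for the naive pluripotency factors -0.90 and then -0.21, 0.01 and 0.09. The 2-cell genes had medians of 2.49 in the empty vector pair, 2.50 in the Esrrb pair, 1.43 in the 2i pair and 0.58 in the Nanog pair. The integrated stress response genes had a median of -0.44 in the empty vector pair, and -0.49, -0.53 and -1.02 in the 2i, Nanog and Esrrb pairs. The lysosomal genes had -0.57 in the empty vector pair and between -0.18 and -0.17 in the others. These medians are descriptions, and differences between them were not tested.

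**Figure D4:**
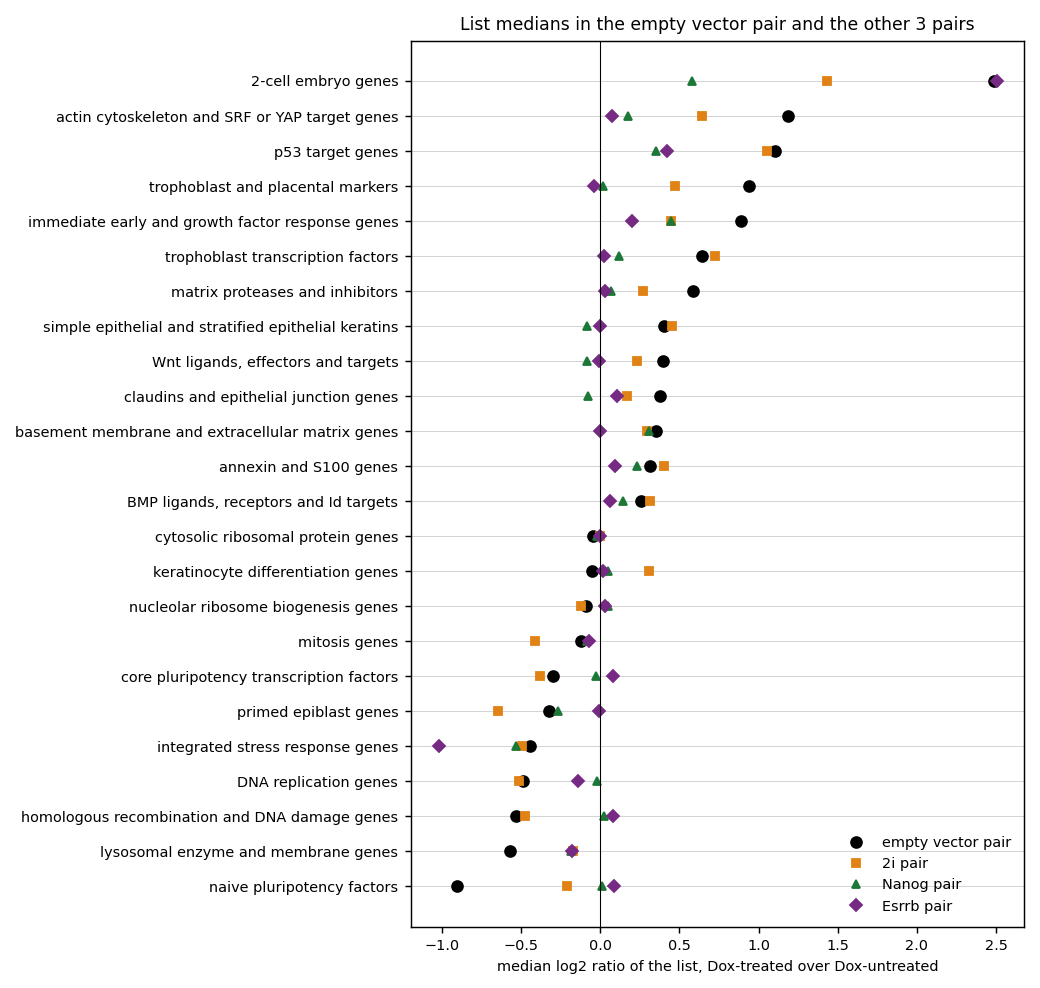
Median log2 ratio, Dox-treated over Dox-untreated (horizontal axis), of 24 gene lists in the empty vector (black circles), 2i (orange squares), Nanog (green triangles) and Esrrb (purple diamonds) pairs, with 1 array per condition. The naive pluripotency factors have -0.90 in the empty vector pair and between -0.21 and 0.09 in the others, while the p53 targets have 1.11 in the empty vector pair, against 1.05 in the 2i pair.

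Single genes were tested only for a difference between the response of the empty vector pair and the mean response of the other 3 pairs. limma called 0 genes higher (0.0%) and 0 lower (0.0%) of 18194 at an adjusted p under 0.05, with 1355 genes at an unadjusted p under 0.05 and a smallest adjusted p of 0.122. The fit has 2 residual degrees of freedom and assumes that the lone empty vector pair varies like the others. This count turned on the 2i pair. Without it, with 1 residual degree of freedom, 1141 genes were called higher and 1081 lower, whereas without the Nanog or the Esrrb pair it was 0 and 0. In the fit with all pairs, Gnl3 differed by -0.65 (SE 0.381, adjusted p = 0.790 in limma), with a lower ratio in the empty vector pair than in each of the other 3. Without the 2i pair it differed by -0.90 (SE 0.171, adjusted p = 0.00494 in limma), and without the Nanog or the Esrrb pair its adjusted p was 1.

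Promoter windows of RefSeq (GRCm38.p6) were matched for 14453 of the 18194 genes, and motifs were searched on both strands. The E-box CACGTG, the core of the element that MiT/TFE and Myc factors bind, stood in 75 of 530 windows (14.2%) of the lower genes, 63 of 780 (8.08%) of the higher genes and 1304 of 14453 (9.02%) of all genes. Among windows of a middling number of CG dinucleotides, when all were ranked into 3 equal classes, the share was 20.5% for the lower genes and 10.6% for all, and in the class richest in CG it was 13.6% and 11.9%. Of the 25 lowest genes, 16 had a window, and 2 of these windows held the E-box, those of Sycp3 and Cadps2. Sycp3, a germline gene, holds this E-box at 64 and 43 bases before its start. Its window, on the plus strand at chr10:88459337-88459636, is shown with the E-boxes in capitals.
Sycp3: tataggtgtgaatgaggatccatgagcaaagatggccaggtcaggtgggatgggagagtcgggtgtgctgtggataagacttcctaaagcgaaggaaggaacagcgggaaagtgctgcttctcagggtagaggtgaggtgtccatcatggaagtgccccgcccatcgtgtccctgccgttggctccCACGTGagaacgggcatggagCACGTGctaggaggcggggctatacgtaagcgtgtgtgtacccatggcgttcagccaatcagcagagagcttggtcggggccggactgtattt

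The AP-1 motif TGANTCA stood in 66 of 780 windows (8.46%) of the higher genes, 30 of 530 (5.66%) of the lower genes and 915 of 14453 (6.33%) of all genes. In the class poorest in CG the share was 16.3% for the higher genes and 11.6% for all, in the middle class 8.78% and 5.17%, and in the class richest in CG it ran the other way, with 3 of 246 windows (1.22%) of the higher genes and 2.26% of all. The p53 decamer, searched as its consensus, stood in 10.6% of the windows of the higher, 6.42% of the lower and 7.26% of all genes. The TEAD motif CATTCCA, which YAP's partners bind, was less frequent among higher genes, with 2.82% against 3.41% of all, and the octamer core ATGCAAA differed little, with 3.85% of the higher and 3.77% of the lower against 3.76% of all genes. The CArG box of SRF, searched as its consensus, stood in 1.92% of the higher, 1.70% of the lower and 1.36% of all. These shares were not tested.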

How the data were processed

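The deposited log2 signals were produced by the authors with RMA (affy package) on Affymetrix mouse genome arrays. RMA removes background, quantile-normalizes and combines probes to 1 value for each probe set. The versions used were not given in the sources used here. Base 2 was inferred from the range of values, 1.82 to 14.6, with array medians from 5.31 to 5.36. No further normalization was applied, and the number of value columns without a sample here was 0. For arrays, their number limits the precision.

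Samples were grouped by their labels. The platform annotation gives 1 symbol for 34958 of 45101 probe sets and several for 932, and 9211 are unnamed here. By Entrez ID 34754 matched RefSeq, with 0 symbols changed. Genes with no probe set of 1 symbol, such as Trp53 and Bax, are not analysed here. For each of 18194 genes the probe set of highest mean signal was kept.

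With limma 3.58.1 in R 4.3.3 (lmFit, then eBayes with a trend) a fit tested the empty vector response against the mean of the other 3. It had the background as a block and Benjamini-Hochberg adjustment. The code was run on simulated data with equal noise for all genes and no difference among the other 3 pairs. In the real data the 2i pair had more genes over 2-fold than the Nanog and Esrrb pairs, a case that the simulation does not cover. Other steps used Python 3.11.15, numpy 2.4.6, pandas 2.3.3 and matplotlib 3.10.9.

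The members, lists and rules were chosen with earlier results of these data known. Named genes were Gnl3, the 25 highest and 25 lowest above the median signal, list members over 2-fold and up to 4 more of each list, and the defining cell type markers. The rule also held the 10 with the largest coefficients called by limma, but the fit with all pairs called 0. The host genes of small nucleolar RNAs and genes named only as members of a run of neighbours fall outside this rule. Results were recomputed with the mean over the probe sets of a gene, with probe sets counted singly, without probe sets ending in _x_at, with a filter on dim genes, another quantile normalization, centring, thresholds of 1.5-fold and 3-fold, no trend and leaving out each other pair. Counting a gene where any or all of its probe sets pass was added after seeing the data.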

Additional observations from a re-analysis of the deposited data

Results flagged for a closer look

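In 7 named genes the empty vector pair and another pair lay over 2-fold in opposite directions. Each rests on 1 array per condition, and the differences were not tested. Against the 2i pair, Aqp3, a water and glycerol channel gene, had a log2 ratio of -3.18 in the empty vector pair, against 1.87 in the 2i pair. Trpm1, a channel gene of pigment cells, had -3.46 in the empty vector pair, against 1.11 under the 2i label, and S100a13 -1.64 against 1.89. Id1, a BMP target, had 1.63 in the empty vector pair, against -3.27 in the 2i pair, Pou3f1 1.62 against -1.97, and the neuronal growth gene Gap43 1.03 against -1.02. Manba, a lysosomal mannosidase gene, had -1.10 in the empty vector pair, against 1.07 in the Nanog pair. Other probe sets of Aqp3 and Trpm1 in the empty vector pair stood at up to -0.02 and -0.04. For the 6 genes set against the 2i pair, the Dox-untreated 2i array is the one whose label Dusp6 did not bear out.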

How the results depend on the processing

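Counts of genes over 2-fold in the empty vector pair moved with the way probe sets were counted. Of higher genes there were 976, against 592 among genes above the median signal, 1766 with each probe set on its own, 1918 at 1.5-fold, 453 at 3-fold and 631 where all probe sets of a gene had to pass, a setting added after seeing the data. Of lower genes there were 701, against 1310 with each probe set on its own, 1885 at 1.5-fold, 218 at 3-fold and 404 where all had to pass. With the other settings both stayed within 1.5 times. In limma's test 0 genes were called higher or lower under each setting apart from leaving out a pair, where the number of higher genes ranged from 0 to 1141 and of lower genes from 0 to 1081, the upper ends without the 2i pair. The cause was not tested. The smallest adjusted p over the settings that kept all pairs ran from 0.0915 to 0.193. Of 318 named genes over 2-fold, 56 were not over 2-fold with the mean of their probe sets, 6 with another quantile normalization and 6 with centring, and 0 changed sign under these 3 settings. The fit in limma is itself paired, with the Dox-treated and Dox-untreated arrays of a background as a block, and within the empty vector pair alone no test is possible with 1 array per condition. Genes dim on both arrays have compressed ratios, so a small ratio there does not show that a gene did not change.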

Other observations

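Host genes of small nucleolar RNAs were among the 32 genes over 2-fold lower in all 4 pairs, and were named after their values were seen. Gas5 had a log2 signal of 11.39 on the Dox-treated against 13.46 on the Dox-untreated empty vector array, Snhg1 11.63 with Dox against 13.62 without, and Snhg12 9.53 with Dox against 11.83 without. In the 2i, Nanog and Esrrb pairs their log2 ratios lay between -1.49 and -1.12. Another probe set of Gas5 stood at -0.05 and one of Snhg1 at -0.27 in the empty vector pair. Adjacent measured genes over 2-fold the same way formed 69 runs of higher genes, 61 of them of 2 genes, and 49 runs of lower genes, 45 of them of 2 genes. Among the runs of 3 were the keratin genes Krt13, Krt15 and Krt19 on chromosome 11 and the guanylate-binding protein genes Gbp3, Gbp2b and Gbp2 on chromosome 3, all higher, and Parp14, Dtx3l and Parp9 on chromosome 16, all lower. How many runs chance gives was not computed.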
